A study of Mus musculus with 48 samples.

Results

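The 7 genes described here encode the cell surface proteins by which early skeletal cells of the mouse are sorted: Itgav, Cd200, Eng, Thy1, Enpep, Tek and Ptprc. They were taken by symbol from the table of RNA counts, in which 7 of 55487 listed genes are members, and were chosen because of their place in the sorting scheme and not by their values. The limbs of C57BL/6 mice at postnatal day 3 were the source of 3 sorted populations: skeletal stem cells (SSC), progenitors of bone, cartilage and stroma (BCSP), and the stage before these (pBCSP). KO cells came from Ptipf/f;Col2a1-cre mice, in which the promoter of Col2a1, a cartilage collagen gene, drives Cre, and WT cells came from Ptipf/f mice, which have no Cre. All groups therefore carry the floxed Ptip alleles. Each population and genotype had 2 RNA libraries, 1 peak list each for the histone marks H3K4me3 and H3K4me1, and 2 lists for H3K27ac.

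In the published scheme for these populations, cells are first cleared of blood cells by CD45 (Ptprc) and of endothelial cells by TIE2 (Tek), and then gated as positive for integrin alpha V (Itgav) and negative for Thy1 and for 6C3 (Enpep). CD200 (Cd200) parts SSC, which carry it, from pBCSP, which do not, and CD105 (Eng) marks BCSP. The labels name the populations and give no gate, so it is not known which of these antibodies were used here. A difference in Cd200 or Eng RNA between populations is a readout of such a sort and not an independent finding. The comparison of KO with WT is not fixed by the gates in this way, although a gate can limit how far a marker differs.

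The RNA libraries held 15495915 to 22670899 counts, and levels are given as counts per 1000000 counts after scaling of the libraries (CPM). Levels of different genes are not compared, since no exon lengths were used. SSC KO replicate 2 stood apart, with a read in 13987 genes against 20965 to 23831 in the other 11 libraries. Paxip1, the gene formerly named Ptip, had 0 to 3.47 CPM in the 6 KO libraries and 7.24 to 14.5 CPM in the 6 WT libraries. The labels do not state whether the replicates are separate animals, and the p-values measure only the spread between these libraries, which may be technical. In sorted bulk samples, fewer cells with a transcript and less of it per cell cannot be told apart. Of the 7 markers, 5 passed the filter on low counts, and Thy1 and Ptprc did not.

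The bases before the starts of Cd200 and Eng are shown because these are the markers whose RNA differed between the sorted populations. Both windows run from 250 to 11 bases before the annotated start (RefSeq, build GRCm38.p6), that of Cd200 at chr16:45409064-45409303 on the minus strand and that of Eng at chr2:32646345-32646584 on the plus strand. Capitals mark the motifs found.
Cd200: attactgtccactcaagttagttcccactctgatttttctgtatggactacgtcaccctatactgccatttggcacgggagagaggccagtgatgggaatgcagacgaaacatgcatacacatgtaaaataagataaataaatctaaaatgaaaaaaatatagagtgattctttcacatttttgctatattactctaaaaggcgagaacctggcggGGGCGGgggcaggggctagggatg
Eng: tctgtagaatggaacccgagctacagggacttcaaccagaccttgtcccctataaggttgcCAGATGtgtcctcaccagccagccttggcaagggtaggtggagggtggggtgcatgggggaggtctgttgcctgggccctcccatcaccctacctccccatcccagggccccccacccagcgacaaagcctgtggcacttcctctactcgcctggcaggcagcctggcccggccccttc
The search covered both strands. It looked for TATAAA, the letters of a TATA box, and for CCAAT, the box of that name. It also looked for GGGCGG, a GC box, and ACCACA, a motif of Runx factors. The last were CAGATG, an E-box, and the palindromic E-box CACGTG. Cd200 held 1 GGGCGG, which begins 34 bases before the start, and 31.3% of the 32851 promoter windows of this length hold that motif. Eng held 1 CAGATG, which begins 189 bases before the start, and 14.1% of the windows hold it. The other letters searched were not in these 2 windows, and no motif overlapped another. The Cd200 window was 42.5% G and C with 6 CG pairs, and the Eng window 63.3% with 4, against medians of 52.1% and 5 over all windows.

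On average over the genotypes, Cd200 had the largest fitted difference between populations of the 5 markers tested, while in WT alone that of Tek for BCSP over SSC was larger (4.35 ± 2.46 log2, edgeR adjusted p = 1). It encodes an immunoglobulin superfamily glycoprotein that engages an inhibitory receptor on myeloid cells, and lies at chromosome 16, 45382111 to 45409060 (GRCm38, ENSMUSG00000022661). In SSC it had 223.7 and 302.5 CPM in KO libraries and 289.1 and 197.5 CPM in WT libraries. In pBCSP the KO libraries had 13.2 and 21.9 CPM and the WT libraries 27.7 and 25.7 CPM. BCSP stood between, with 123.8 and 74.8 CPM in KO and 132.0 and 75.2 CPM in WT. The 3 populations did not overlap: every pBCSP library was below every BCSP library, and every BCSP library was below every SSC library. Among all genes tested, 0.96% lay wholly below SSC in pBCSP, 1.58% wholly above pBCSP in BCSP, and 1.36% wholly below SSC in BCSP.

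The Cd200 mean of pBCSP was 22.1 ± 6.40 CPM, against 253 ± 50.7 CPM in SSC (SD, n = 4 each), and the fitted log2 difference was -3.54 ± 0.31 (SE). It passed the threshold of 0.05 with the quasi-likelihood test of edgeR and Benjamini-Hochberg adjustment over 17494 genes (adjusted p = 0.0142). This was 1 of 5 markers tested, and 0.0114% of all genes tested passed. The other gene that passed was Cdh19, a cadherin gene named after its values were seen, which was lower by a log2 difference of -4.24 ± 0.46 (edgeR adjusted p = 0.0491). BCSP averaged 101 ± 30.7 CPM of Cd200, 4.58 times the pBCSP mean. That difference, 2.23 ± 0.29 log2, missed the edgeR threshold (adjusted p = 0.118) and passed in DESeq2 (adjusted p = 5.36e-08). The log2 difference of -1.32 ± 0.28 of BCSP over SSC likewise missed it in edgeR (adjusted p = 0.499) and passed in DESeq2 (0.0152). DESeq2 passed 0.529% of genes over pBCSP and 1.47% over SSC. The pBCSP call was lost without SSC WT replicate 1 (adjusted p = 0.0754), pBCSP KO replicate 1 (0.0533) or 2 (0.104), or pBCSP WT replicate 1 (0.296) or 2 (0.322). It was also lost in edgeR within 1 genotype, where the log2 difference was -3.90 in KO (adjusted p = 0.144) and -3.19 in WT (0.318).

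**Figure D1:**
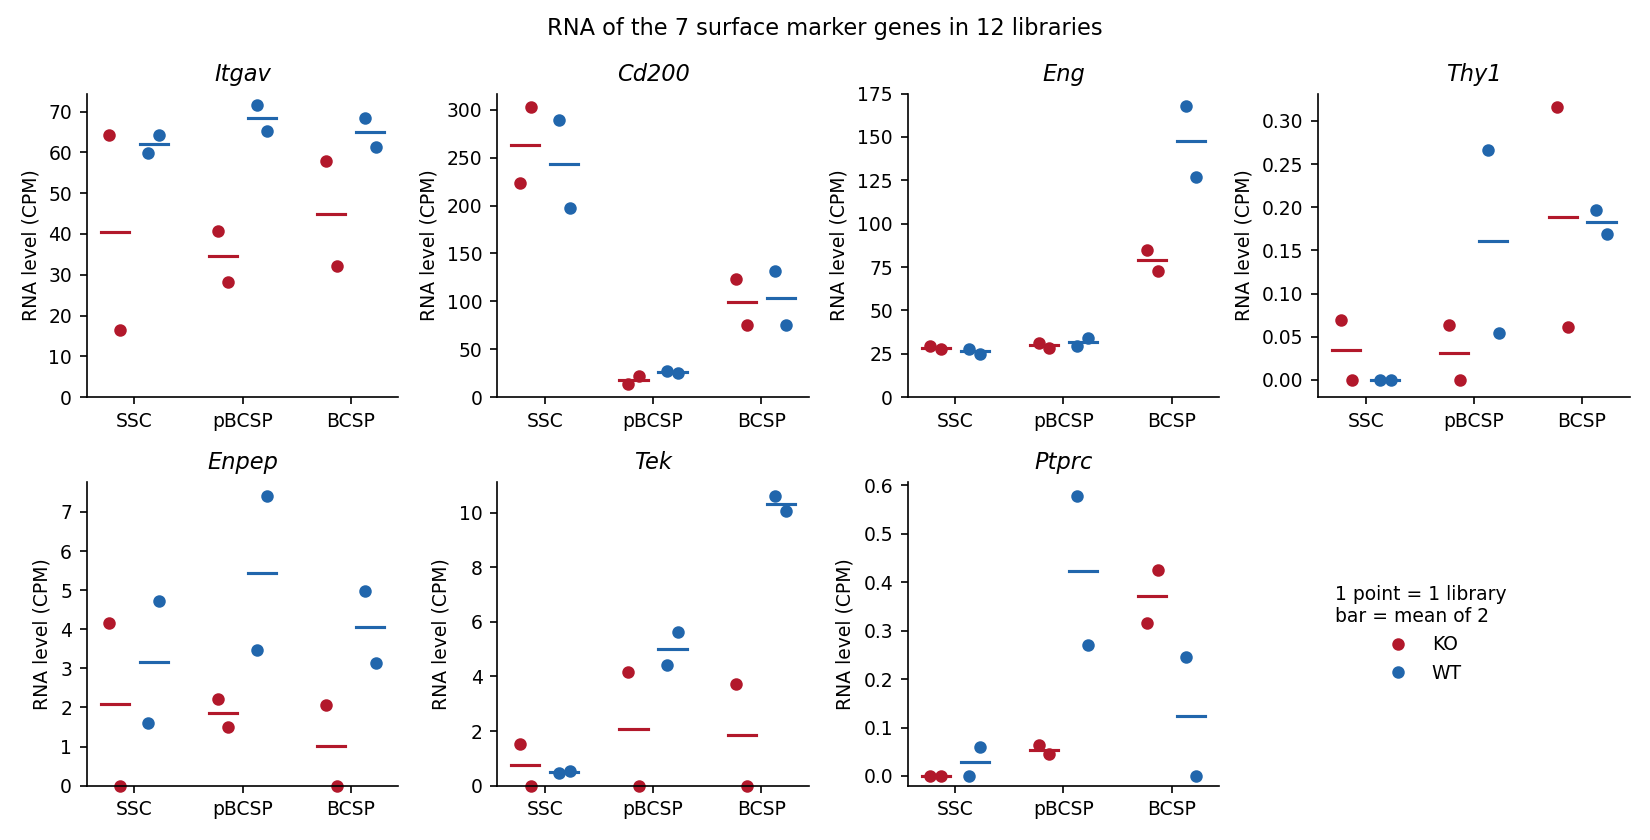
RNA level in CPM (y axis, linear, own scale in each panel) of the 7 marker genes by population, with 1 point per library, KO left of WT, and a bar at the mean of the 2 libraries. Cd200 lies at 13.2 to 27.7 CPM in pBCSP and at 197.5 CPM or more in SSC, Eng lies at 72.8 CPM or more in BCSP alone, and Thy1 and Ptprc stay below 0.6 CPM.

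Eng marked BCSP. It encodes endoglin, a co-receptor for BMP9, BMP10 and TGF-beta that is best known from endothelium, and lies at chromosome 2, 32646595 to 32682669 (ENSMUSG00000026814). SSC had 29.4 and 27.7 CPM in KO and 27.8 and 25.0 CPM in WT. In pBCSP it had 31.3 and 28.5 CPM in KO and 29.3 and 34.2 CPM in WT. BCSP had 85.1 and 72.8 CPM in KO and 167.9 and 126.9 CPM in WT. All 4 BCSP libraries were above the other 8, as for 1.58% of genes against pBCSP and 2.17% against SSC, and within BCSP both KO libraries were below both WT libraries.

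BCSP averaged 113 ± 43.2 CPM of Eng, against 30.8 ± 2.54 CPM in pBCSP and 27.5 ± 1.82 CPM in SSC (SD, n = 4 each). The log2 difference was 1.81 ± 0.18 over pBCSP (edgeR adjusted p = 0.0262) and 1.97 ± 0.18 over SSC (edgeR adjusted p = 0.0258). In each comparison Eng was 1 of 5 markers tested to pass, while 0.0114% of all genes passed over pBCSP and 0.0171% over SSC. Between pBCSP and SSC its log2 difference was 0.17 ± 0.18, which did not pass. Prg4, the gene of the joint lubricant lubricin, was the other gene to pass in both (-2.00 ± 0.18 over pBCSP, edgeR adjusted p = 0.0166, and -1.58 ± 0.18 over SSC, 0.0383). Dapk1, which encodes a death-associated protein kinase, was the third gene over SSC (2.47 ± 0.26, edgeR adjusted p = 0.0307). Both were named after their values were seen.

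The direction of the Eng difference did not depend on genotype or on single libraries, whereas its call did. Over pBCSP it was 1.40 in KO alone (edgeR adjusted p = 1) and 2.21 in WT alone (0.193), and over SSC it was 1.47 in KO alone (0.84) and 2.48 in WT alone (0.0635). The call over pBCSP was kept without SSC KO replicate 1 or 2 and lost without any 1 of the other 10 libraries (edgeR adjusted p of 0.0658 to 0.573). The call over SSC was kept without SSC KO replicate 1 or BCSP KO replicate 2 and lost without any 1 of the other 10 (0.0604 to 0.324). With same-numbered libraries of a genotype treated as pairs, 9 genes passed for pBCSP over SSC, 10 for BCSP over pBCSP and 96 for BCSP over SSC, against 2, 2 and 3 without the pairing, and Cd200 or Eng remained the 1 marker that passed in each.

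**Figure D2:**
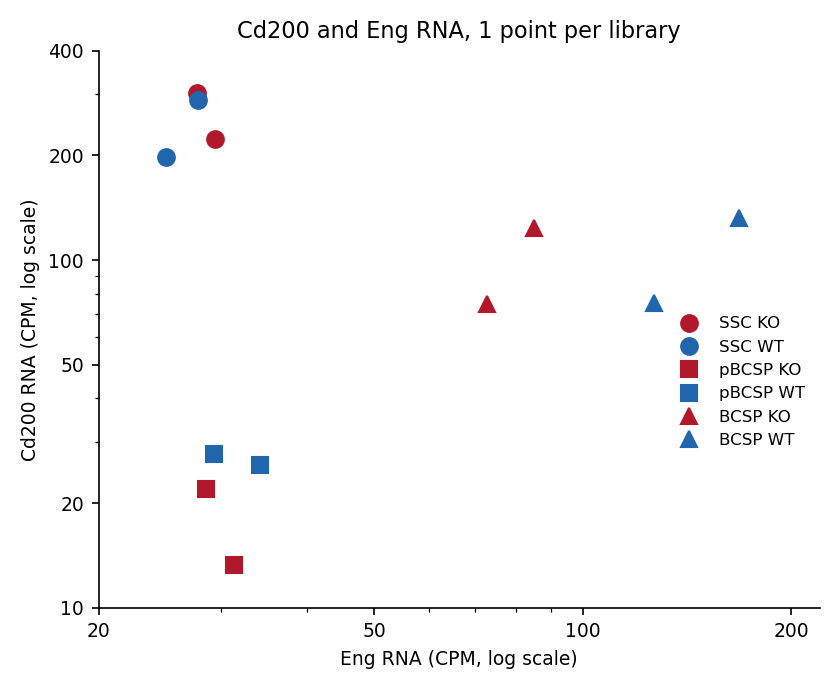
Cd200 RNA (y axis) against Eng RNA (x axis) in the 12 libraries, both in CPM on log scales, with population by symbol and genotype by colour. The 3 populations lie apart: SSC is high in Cd200, pBCSP is low in both, and BCSP is high in Eng at 74.8 to 132.0 CPM of Cd200, with KO at 72.8 and 85.1 CPM of Eng and WT at 126.9 and 167.9 CPM.

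Itgav encodes the alpha V chain of integrins that bind fibronectin and vitronectin, and is the positive gate shared by the 3 populations (chromosome 2, 83722303 to 83806917, ENSMUSG00000027087). It had 64.3 and 16.4 CPM in SSC KO and 59.8 and 64.2 CPM in SSC WT. In pBCSP the levels were 40.9 and 28.1 CPM in KO and 71.7 and 65.1 CPM in WT, and in BCSP 57.8 and 32.2 CPM in KO and 68.4 and 61.4 CPM in WT. The WT libraries lay within 59.8 to 71.7 CPM, and 5 of the 6 KO libraries lay below the lowest of them. Means over populations differed little, at 51.2 ± 23.3 CPM in SSC, 51.5 ± 20.4 CPM in pBCSP and 55.0 ± 15.8 CPM in BCSP (SD, n = 4 each), and no population comparison of Itgav passed in edgeR (adjusted p of 0.995 or more).

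Enpep encodes aminopeptidase A, known as 6C3, which cleaves angiotensin II and marks a stromal cell type of bone (chromosome 3, 129269177 to 129332749, ENSMUSG00000028024). It had 4.16 and 0 CPM in SSC KO and 1.61 and 4.71 CPM in SSC WT. In pBCSP it had 2.21 and 1.49 CPM in KO and 3.47 and 7.39 CPM in WT, and in BCSP 2.05 and 0 CPM in KO and 4.98 and 3.14 CPM in WT. Both libraries at 0 were KO replicate 2, where a count of 0 allows up to 0.166 CPM in SSC and 0.182 CPM in BCSP from counting error alone. The populations overlapped, and no population comparison passed in edgeR (adjusted p of 0.998 or more).

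Tek encodes TIE2, the angiopoietin receptor of endothelial cells (chromosome 4, 94739086 to 94874976, ENSMUSG00000006386). It had 1.52 and 0 CPM in SSC KO and 0.461 and 0.537 CPM in SSC WT. The pBCSP libraries had 4.16 and 0 CPM in KO and 4.402 and 5.61 CPM in WT, and the BCSP libraries 3.74 and 0 CPM in KO and 10.6 and 10.05 CPM in WT. Replicate 2 of KO had no Tek read in any population, where 0 allows up to 0.135 to 0.182 CPM, while replicate 1 had 22 to 71 reads. In BCSP WT the 2 libraries held 215 and 179 reads, so the transcript of a protein by which the published scheme removes cells was present in the sorted WT population. Over SSC the log2 difference of Tek was 2.38 ± 1.61 in pBCSP and 2.83 ± 1.64 in BCSP, and neither passed in edgeR (adjusted p = 1 and 0.863). Without the filter on low counts the BCSP difference passed (2.84, edgeR adjusted p = 0.0263).

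Levels of other endothelial genes were set beside Tek. The summed level of 10 endothelial markers was 7.70 to 29.4 CPM in SSC KO and 14.7 to 19.5 CPM in SSC WT, 6.50 to 38.1 CPM in pBCSP KO and 65.3 to 74.9 CPM in pBCSP WT, and 11.9 to 22.8 CPM in BCSP KO and 42.0 to 52.8 CPM in BCSP WT. No more than 1 of the 10 was at 0 in any WT library, but 9 were at 0 in SSC KO replicate 2 and 5 in pBCSP KO replicate 2. The sum was higher in pBCSP WT than in BCSP WT, and Tek and Eng were higher in BCSP WT. None of the 10 genes passed in any comparison in edgeR. For BCSP over pBCSP 6 of the 10 were below 0, with a median of -0.68 log2, and Tek was at 0.45 ± 1.51 (SE). For pBCSP over SSC 0 of the 10 were below 0 (median 1.76), with Tek at 2.38 ± 1.61. For BCSP over SSC 1 was below 0 (median 0.80), with Tek at 2.83 ± 1.64. In KO on average over the populations 9 of the 10 were below 0, with a median of -1.86 log2, and Tek was at -1.05 ± 1.27. The part of endothelial cells in the Tek and Eng levels was not tested.

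**Figure D3:**
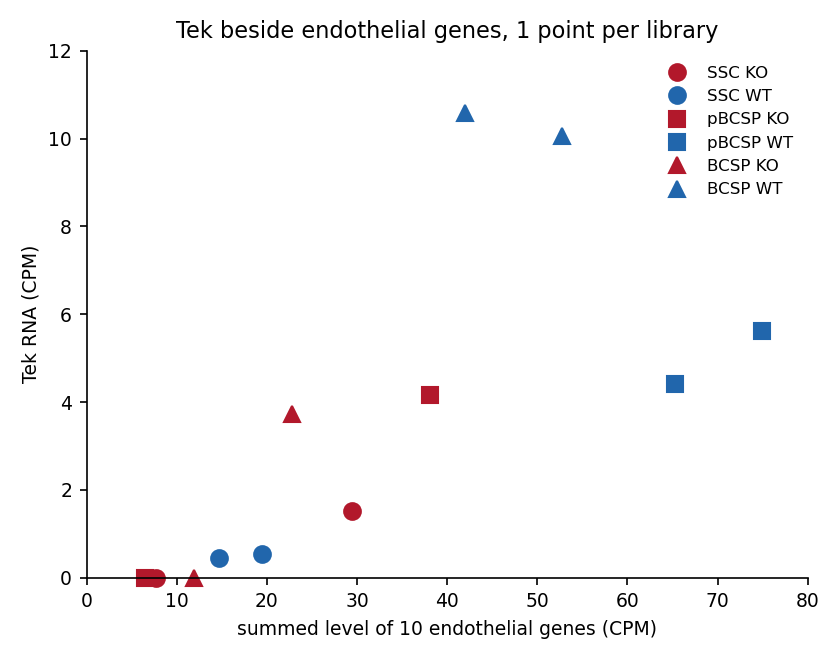
Tek RNA (y axis, CPM) against the summed level of 10 endothelial marker genes (x axis, CPM), 1 point per library, population by symbol and genotype by colour. The 3 KO libraries of replicate 2 lie at 0 Tek with sums of 6.50 to 11.9 CPM, and BCSP WT lies highest in Tek, at 10.05 and 10.6 CPM, with smaller sums than pBCSP WT.

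Thy1 and Ptprc, both markers of excluded cells, were close to absent. Thy1 encodes the glycoprotein CD90 (chromosome 9, 44043384 to 44048579, ENSMUSG00000032011) and had 23 reads over the 12 libraries, with at most 6 in a library. SSC had 1 and 0 reads in KO and 0 and 0 in WT, pBCSP had 1 and 0 in KO and 6 and 1 in WT, and BCSP had 6 and 1 in KO and 4 and 3 in WT. Ptprc encodes CD45, the phosphatase of all nucleated blood cells (chromosome 1, 138062859 to 138175756, ENSMUSG00000026395), and had 39 reads. In SSC it had 0 and 0 reads in KO and 0 and 1 in WT, in pBCSP 1 and 1 in KO and 13 and 5 in WT, and in BCSP 6 and 7 in KO and 5 and 0 in WT. The genotypes of both genes overlapped in SSC, and of Thy1 in all 3 populations, while for Ptprc KO lay below WT in pBCSP and above WT in BCSP. Of the genes tested, 45.2% in pBCSP and 50.5% in BCSP did not overlap between genotypes, in either direction.

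Other leukocyte genes were not all as low as Ptprc. The summed level of 10 leukocyte markers was 16.8 to 24.4 CPM in SSC KO and 3.82 to 19.8 CPM in SSC WT, 42.9 to 47.2 CPM in pBCSP KO and 17.4 to 34.3 CPM in pBCSP WT, and 72.9 to 81.5 CPM in BCSP KO and 10.9 to 13.3 CPM in BCSP WT. Most of the sum in BCSP KO was Lcp1, an actin-bundling protein gene named after its values were seen, at 69.2 and 71.4 CPM in KO and 5.71 and 6.12 CPM in WT. Lcp1 was also most of the sum in pBCSP KO, at 42.4 and 32.6 CPM, beside 21.7 and 6.21 CPM in pBCSP WT. In SSC it had 11.2 and 0 CPM in KO and 15.9 and 1.19 CPM in WT. In SSC KO replicate 2 the other 9 genes were at 0, and the whole sum was Laptm5. On average over the populations Lcp1 (1.46 ± 0.91 log2) and Laptm5 (2.66 ± 0.72) were above 0 in KO. The other 7 of the 9 leukocyte genes tested were below 0. The median of the 9 was -2.36 log2, against -0.09 over all genes. Within each population 7 of 9 were below 0, in SSC with Lcp1 among them (-0.62 ± 1.57). None of the 9 passed in any comparison in edgeR.

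Between genotypes, none of the 5 markers tested passed in edgeR on average over the populations, where 1.17% of all genes did. The averages are over 6 libraries per genotype, which were fitted as independent although same-numbered libraries of a genotype deviated together (r of 0.28 to 0.488), so the p-values of the average, for all genes and lists, may be too small. Itgav averaged 39.96 ± 18.3 CPM in KO and 65.1 ± 4.39 CPM in WT (SD, n = 6 each), a log2 difference of -0.71 ± 0.32 (adjusted p = 0.253). Without SSC KO replicate 1 the difference was -1.13 and passed (edgeR adjusted p = 0.00496), as did that of Enpep (-4.12, adjusted p = 0.0247, against -1.38 ± 1.08 and 0.507 with all libraries). In that fit 6147 genes passed, against 205 with all libraries, so the 2 markers do not stand apart from the background. For Cd200, Eng and Tek the average differences were -0.18 ± 0.23, -0.29 ± 0.15 and -1.05 ± 1.27 log2 (edgeR adjusted p = 0.687, 0.303 and 0.677). All 5 were below 0, with a median of -0.71 against -0.09 over all genes tested, and no marker had groups of 6 that did not overlap, against 5.06% of genes.

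Within a population each genotype had 2 libraries and no marker passed in edgeR, nor did any of the 17494 genes (0%). At an unadjusted p under 0.05 there were 1643 genes in SSC, 1096 in pBCSP and 1095 in BCSP, while DESeq2 passed 1.08%, 0.84% and 1.03% of those it tested. In BCSP the Eng mean was 78.9 ± 8.74 CPM in KO and 147 ± 29.0 CPM in WT (SD, n = 2 each), a log2 difference of -0.90 ± 0.25. Its unadjusted p was 0.00577 and its adjusted p 0.583 in edgeR, and the adjusted p was 0.0400 in DESeq2, where Eng was 1 of 5 markers to pass. In pBCSP the Eng difference was -0.09 ± 0.25 and in SSC 0.11 ± 0.25. The test of whether the KO effect on Eng differed between populations gave an unadjusted p of 0.042 and an adjusted p of 1 in edgeR, so a difference between populations was not shown.

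In BCSP both KO libraries lay below both WT libraries for Itgav, Eng, Enpep and Tek, 4 of the 5 markers tested, against 26.4% of all genes in that direction and 50.5% in either. In pBCSP the same held for Itgav, Cd200, Enpep and Tek, against 24% of genes in that direction and 45.2% in either. In SSC the groups of all 5 overlapped, whereas those of 39.5% of genes did not. The log2 difference of Itgav was -0.62 ± 0.55 in SSC, -0.99 ± 0.55 in pBCSP and -0.53 ± 0.54 in BCSP, and that of Cd200 was 0.11 ± 0.40, -0.60 ± 0.40 and -0.06 ± 0.40. For Enpep it was -0.61 ± 1.84, -1.55 ± 1.87 and -1.97 ± 1.902, and for Tek 0.58 ± 2.26, -1.28 ± 2.16 and -2.46 ± 2.23. None of these passed (edgeR adjusted p of 0.676 or more). In SSC, Itgav passed without SSC KO replicate 1, which leaves replicate 2 as the sole SSC KO library and assumes that it varies like the other groups (-1.90, edgeR adjusted p = 0.012). That library is the one that stood apart, and 5908 genes passed in the same fit, against 0 with all libraries.

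**Figure D4:**
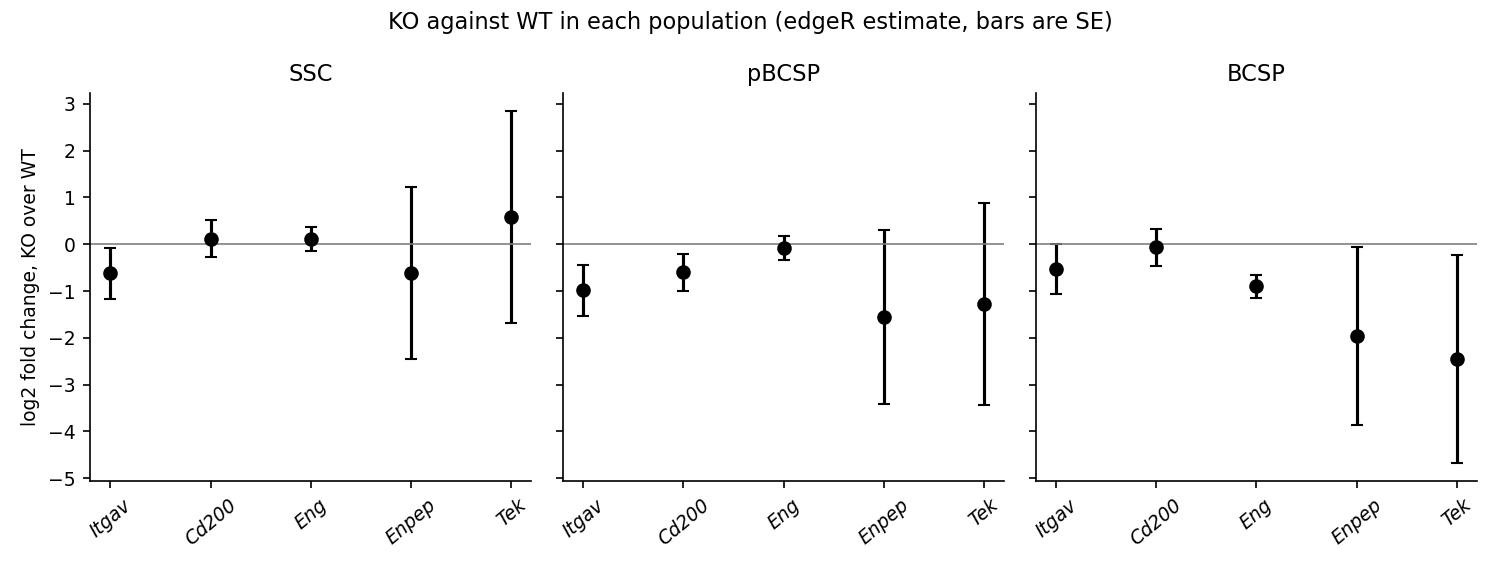
The log2 fold change of KO over WT (y axis) in SSC, pBCSP and BCSP for the 5 markers that passed the filter on low counts, as estimated by edgeR, with bars of 1 SE and 2 libraries per group. Eng in BCSP, at -0.90 ± 0.25, lies farthest from 0 relative to its SE, and Enpep and Tek have SEs of 1.84 to 2.26.

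The partners of the markers were described from lists. Of 5 beta chains that can pair with alpha V, 4 were tested and 0 passed in any comparison. Itgb1, whose product is shared by many integrins, was -0.51 ± 0.18 log2 in KO on average (edgeR adjusted p = 0.171), Itgb5 was -0.52 ± 0.37 (0.457) and Itgb8, which acts in the activation of TGF-beta, was -1.54 ± 0.45 (0.122). The median of the 4 was -1.002, beside -0.71 for Itgav itself. Over SSC, Itgb8 in pBCSP had a log2 difference of -2.43 ± 0.57 (edgeR adjusted p = 0.6).

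Of 14 ligands, receptors and targets of endoglin, 12 were tested and 0 passed in any comparison. Gdf2 and Bmp10, which encode the ligands BMP9 and BMP10, had at most 0.337 CPM and 0 CPM in a library. The targets Id1, Id2 and Id3 differed by -0.08 ± 0.49, -0.46 ± 0.16 and -0.56 ± 0.28 log2 in KO on average (edgeR adjusted p = 0.95, 0.167 and 0.299). Acvrl1, the receptor ALK1 with which endoglin acts and a gene named after its values were seen, had 17.3 and 3.40 CPM in BCSP KO and 35.1 and 39.9 CPM in BCSP WT. Like Eng and 26.4% of all genes tested it was higher in both WT libraries, and its log2 difference was -1.86 ± 0.81 (edgeR adjusted p = 0.785). Over SSC it differed by 1.97 ± 0.58 in BCSP (0.545).

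Of the TIE2 ligands and partners 0 of 5 passed. Angpt1, the activating ligand, had 17.7 and 56.0 CPM in SSC KO and 5.82 and 3.58 CPM in SSC WT, and was 1.67 ± 0.37 log2 in KO on average (edgeR adjusted p = 0.0676). Angpt2, the context-dependent ligand, was -1.61 ± 1.00 (0.405), and Tie1, the sister receptor that the endothelial list also holds, was -2.56 ± 1.05 (0.225). Among 8 genes of aminopeptidases and the angiotensin system 0 passed, with Agt, the angiotensinogen gene, at 0.98 ± 0.27 (0.108), the aminopeptidase N gene Anpep at -0.72 ± 0.53 (0.479) and the receptor gene Agtr1a at -0.62 ± 0.81 (0.699). The CD200 receptor gene Cd200r1 had at most 1.32 CPM in a library and did not pass. Of 10 other surface antigens of skeletal stem cells 0 passed, and those with the highest mean CPM, Cd164, Nt5e and Pdpn, were at 0.07 ± 0.17 (0.844), -0.76 ± 0.45 (0.379) and -0.47 ± 0.41 (0.554) in KO on average.

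Markers of other cells were set beside the genotypes. Of 8 chondrocyte genes 4 passed as higher in KO on average, as did 0.966% of all genes: Matn1 (3.00 ± 0.33 log2, edgeR adjusted p = 0.0244), Ucma (1.96 ± 0.26, 0.0266), Matn3 (1.47 ± 0.22, 0.0312) and Col9a1 (1.16 ± 0.21, 0.0484). The summed level of all 8 chondrocyte genes was 46272 to 72429 CPM in the 6 KO libraries and 28856 to 80346 CPM in the 6 WT libraries. Col2a1, with the highest mean CPM of the 8 (32921), weighs most in this sum. It was the 1 chondrocyte gene below 0 in KO on average (-0.07 ± 0.24), and the median of the 8 was 1.15 log2. The summed level of 8 fibroblast genes was 8056 to 25848 CPM in KO and 15097 to 54758 CPM in WT, that of 8 pericyte genes 349 to 673 CPM in KO and 374 to 709 CPM in WT, and that of 7 erythroid genes 1.28 to 27.6 CPM in KO and 20.6 to 225.7 CPM in WT. In KO on average 6 of the 8 fibroblast genes were below 0 (median -1.07 log2), as were 7 of the 8 pericyte genes (-1.19). Of the 7 erythroid genes 6 were below 0 (-2.79). Cspg4, the pericyte gene with the highest mean CPM (325), was the 1 above 0 (0.57 ± 0.15). Col1a1 had the highest mean CPM of the fibroblast genes (16742) and was at -1.20 ± 0.39. No gene of these 3 lists passed. Their part in the differences of the surface markers was not tested.

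The genes whose pattern over the 12 libraries was most like each marker were listed by Pearson's r of log2 CPM, as a description. Cd200 was followed most closely by Agbl3 (r = 0.915), Ttyh1 (0.913) and Cdh19 (0.906). Eng was followed by Gstm2 (0.933), Sh2d4b (0.917) and Abcg2 (0.91). Itgav went with Ets1 (0.977), Lrrc58 (0.976) and Twf1 (0.973), which like it were lowest in SSC KO replicate 2, where Ets1 had 6.81 CPM against 164 CPM in SSC KO replicate 1. Tek went with Lmo2 (0.978), Dkk2 (0.974) and Tagln2 (0.965), and Enpep with Hao1 (0.972), Gm24596 (0.96) and Gm44369 (0.948), and in SSC and BCSP all 6 of these genes were lowest in KO replicate 2. The points share libraries and depth, and the values of Tek and Enpep rest partly on libraries at 0.

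The marks were read from the authors' peak lists, whose fold enrichments are the peak caller's own values, with 1 list per group for H3K4me3 and H3K4me1 and therefore no replicate check. H3K4me3 marks promoters, H3K4me1 enhancers and the flanks of promoters, and H3K27ac active promoters and enhancers. Within 1000 bases of an annotated start, 28 of 36 pairs of a marker and a list had an H3K4me3 peak. Itgav, Cd200, Eng and Enpep had one in all 6 lists, Tek in 4 and Ptprc in 0, beside 49.9% to 53.7% of 27025 genes per list. Thy1 has no entry in the table of starts.

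At the Eng start the H3K4me3 fold enrichment was 6.99 in SSC KO and 4.93 in SSC WT, 4.83 in pBCSP KO and 7.02 in pBCSP WT, and 15.7 in BCSP KO and 12.2 in BCSP WT. Like the RNA, it was highest in both BCSP lists. Within BCSP the KO list had the higher value, although Eng RNA was lower there in KO. The peak spanned 1969 bases in BCSP KO and 1704 in BCSP WT, and 919 to 1649 bases in the other 4 lists. The median fold over all peaks at gene starts was 16.5 in BCSP KO and 16.01 in BCSP WT and 12.8 to 15.2 in the other 4 lists, a smaller range than that of Eng. Among such peaks the Eng fold ranked at the 45.1 percentile in BCSP KO and the 29.5 percentile in BCSP WT, against the 6.42 to 15.1 percentile elsewhere.

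The Cd200 start carried a peak of 19.9-fold in SSC KO and 17.3-fold in SSC WT, 15.1-fold in pBCSP KO and 17.3-fold in pBCSP WT, and 20.02-fold in BCSP KO and 24.9-fold in BCSP WT. The height did not follow the RNA, since BCSP WT was highest and SSC WT and pBCSP WT were alike. The width had the same order of populations as the RNA: the peak spanned 3040 bases in SSC KO and 2908 in SSC WT, 1454 in pBCSP KO and 1424 in pBCSP WT, and 2018 in BCSP KO and 1773 in BCSP WT. Among all peaks at gene starts these widths ranked at the 72.1 and 77.2 percentile in SSC KO and WT, the 32.5 and 29.4 percentile in pBCSP KO and WT, and the 47.7 and 42.5 percentile in BCSP KO and WT. Median widths of such peaks were 2237 and 1954 bases in SSC KO and WT, 1792 and 1825 in pBCSP KO and WT, and 2071 and 1936 in BCSP KO and WT. With 1 list per group and a width that depends on the caller, this is a description.

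**Figure D5:**
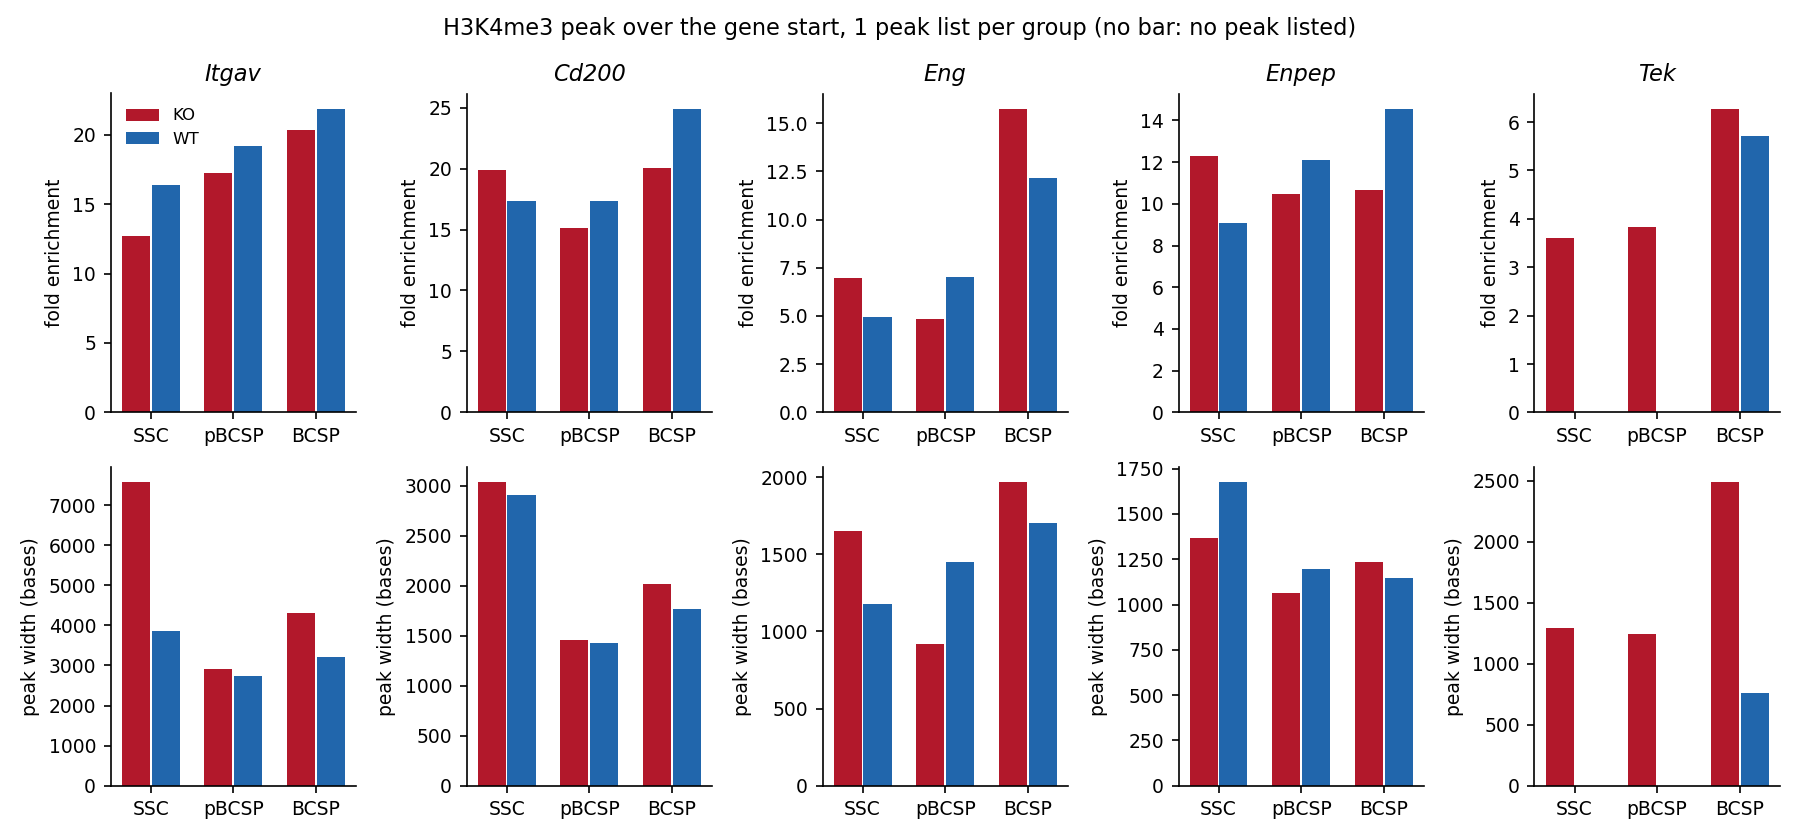
Fold enrichment (upper row) and width in bases (lower row) of the highest H3K4me3 peak within 1000 bases of the start of 5 markers, as deposited, with 1 list per population and genotype and KO left of WT. Eng is highest in the BCSP lists, at 15.7 in KO and 12.2 in WT, and the Cd200 peak is widest in SSC and narrowest in pBCSP.

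Itgav, Enpep and Tek also had peaks at their starts. The Itgav peak had 12.7-fold enrichment in SSC KO and 16.4-fold in SSC WT, 17.2-fold in pBCSP KO and 19.2-fold in pBCSP WT, and 20.3-fold in BCSP KO and 21.9-fold in BCSP WT. KO was the lower list in each population, as for the RNA means, but its peak was the wider one, at 7580 bases in KO and 3865 in WT of SSC, 2907 in KO and 2739 in WT of pBCSP, and 4316 in KO and 3216 in WT of BCSP. Among peaks at gene starts the Itgav fold ranked lower in KO than in WT in SSC (34.3 and 78.0 percentile) and BCSP (78.5 and 90.1) and higher in pBCSP (93.1 and 88.3). Enpep lay between 9.09-fold and 14.6-fold. Tek had a peak of 3.60-fold in SSC KO, 3.83-fold in pBCSP KO, and 6.28-fold in BCSP KO and 5.72-fold in BCSP WT, and none in SSC WT or pBCSP WT. The Tek start was therefore listed in all 3 KO lists, although Tek RNA was 0 in replicate 2 of each KO group, and the labels do not tie ChIP lists to RNA libraries. The SSC KO and pBCSP KO peaks were weak, with a -log10 q of 3.11 and 2.75. Among peaks at gene starts their fold ranked at the 4.85 and 2.16 percentile. The list was longer in KO than in WT in SSC (42399 and 33510 peaks) and shorter in pBCSP (25468 and 28612).

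Thy1 and Ptprc, the markers that failed the filter on low counts, each had an H3K4me3 peak in all 6 lists. How many of all genes have a peak anywhere over the gene was not computed. Around Thy1 a peak lay over the lower end of the gene's coordinates, within 44042776 to 44044419 of chromosome 9, with a fold enrichment of 4.63 to 8.28. In Ptprc there was no peak at either annotated start, and 1 peak lay inside the gene, within 138135658 to 138136940 of chromosome 1 and 38827 bases from the start at its centre, with 5.37-fold to 11.3-fold enrichment. These peaks were present in SSC, where Ptprc had 1 read and Thy1 1 read over 4 libraries.

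H3K4me1 peaks were found over every marker, counted over the gene and 10000 bases before its start, in all 6 lists (42 of 42 pairs). With a -log10 q of at least 5, 7 pairs remained. The share of all genes with a peak in such a window was not computed. Within 1000 bases of a start, 5 of the 6 markers with an annotated start had a peak in every list, beside 41.3% to 60.6% of all genes. The share of the wider window covered was larger in KO than in WT in all 3 populations for Itgav, Eng, Enpep, Tek and Thy1. How many of all genes show this was not counted. For Eng, with a window of 46075 bases, it was 10691 bases in KO and 5536 in WT of SSC, 13110 in KO and 11349 in WT of pBCSP, and 15446 in KO and 10669 in WT of BCSP. Over Tek it was 0.904% in KO and 0.317% in WT of SSC, 2.70% in KO and 0.554% in WT of pBCSP, and 6.03% in KO and 0.764% in WT of BCSP, and 6 of 7 merged regions were in KO lists alone. Cd200 and Ptprc were exceptions in pBCSP. Ptprc had 2.56% in KO and 0.513% in WT of SSC, 1.69% in KO and 1.79% in WT of pBCSP, and 1.01% in KO and 0.780% in WT of BCSP. Cd200 had 20.7% in KO and 13.4% in WT of SSC, 6.30% in KO and 8.53% in WT of pBCSP, and 17.3% in KO and 16.2% in WT of BCSP. The KO lists were longer as a whole, with 115704 peaks in KO and 75277 in WT of SSC, 137117 and 120792 in pBCSP, and 148530 and 113313 in BCSP, and the part of list length in the share covered was not tested.

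H3K27ac peaks were found in the same wider window in 10 of 84 pairs of a marker and a list. With a -log10 q of at least 5, 2 pairs remained. Cd200, Tek, Thy1 and Ptprc had none in the 12 lists, Cd200 despite its RNA level in SSC. At the start of Eng 1 list had a peak, BCSP WT of the first set (3.92-fold, -log10 q of 2.04, chromosome 2, 32646510 to 32647039). BCSP WT was the group with the highest Eng RNA, but its list of the second set had no peak at Eng. The first BCSP WT list also had start peaks for 12.8% of all genes, the largest share of the 12 lists. At the start of Itgav there were peaks in pBCSP KO of the first set (3.42-fold) and BCSP KO of the second (5.57-fold). Over its wider window Itgav had a peak in 7 of the 12 lists. Away from the start these were both pBCSP WT lists, both BCSP WT lists and both BCSP KO lists. The 2 pairs that remained at a -log10 q of at least 5 were Itgav in BCSP KO (6.36-fold) and BCSP WT (7.63-fold) of the second set. Enpep had a peak inside the gene in BCSP KO (4.47-fold) and BCSP WT (3.49-fold) of the first set. The lists were short and unequal, from 137 to 8572 peaks. A start peak was listed for 0.163% to 12.8% of all genes, so a gene without a listed peak at its start was the usual case. For the wider window, in which the pairs were counted, the share of all genes was not computed.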

How the data were processed

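For RNA the authors deposited raw counts of reads per gene, in 1 table of all 12 libraries. For each ChIP library they deposited a list of peaks with a score, a fold enrichment and its significance as -log10 of p and of q. The second set of H3K27ac lists is in the narrow format of the caller and all others are in its broad format. Tools named in the submitters' processing notes are MACS2 2.2.6, featureCounts 2.0.1, Bowtie2 2.3.5.1, SAMtools 1.9 and Trim Galore 0.6.6, with the build GRCm38. Settings and the use of strand were not given in the sources used here. Since Eng and Fpgs overlap at their ends, their reads may not be separable.

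Counts were scaled by TMM, filtered by filterByExpr (17494 genes kept) and fitted with 1 mean per group over all 12 RNA libraries by edgeR 4.0.16 (quasi-likelihood test, R 4.3.3), with Benjamini-Hochberg adjustment over all genes and a threshold of 0.05. The biological coefficient of variation was 0.605. DESeq2 1.42.0 was an alternative, as were RLE scaling, no filter, pairing by replicate number and leaving out each library, and the code was tested on simulated data. Same-numbered libraries of a genotype deviated together (r of 0.28 to 0.488 in 6 of 6 pairs of populations), whereas numbers did not pair KO with WT (-0.137 to 0.0462), so pairing was taken within a genotype. A count of 0 was taken to allow 3 counts, 0.133 to 0.208 CPM over the libraries, for counting error only.

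Peaks were counted where they overlapped, by at least 1 base, a window of 1000 bases either side of a RefSeq start, or the gene with 10000 bases before it (on both sides for Thy1). All 7 symbols matched an Ensembl ID, 6 of 7 had a promoter entry, and all genes of the lists but 1, of the erythroid list, were found. The named genes were all 7 markers, list genes past the threshold and at most 3 others per list by mean CPM, with exceptions stated. The members and lists were chosen with earlier results of these data known. The 12 input libraries were not used here.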

Additional observations from a re-analysis of the deposited data

Results flagged for a closer look

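The reads of Ptprc, the blood cell gene, lay on opposite sides in 2 populations. In pBCSP both KO libraries, with 1 and 1 reads, were below both WT libraries, with 13 and 5, whereas in BCSP both KO libraries, with 6 and 7 reads, were above both WT libraries, with 5 and 0. In BCSP the KO mean was 0.371 CPM and the WT mean 0.123 CPM, a difference of 0.248 CPM. The gene failed the filter on low counts. Of the genes that passed it, 45.2% in pBCSP and 50.5% in BCSP had genotypes that did not overlap, in either direction. Without that filter, edgeR's test of whether the KO effect differed between populations gave an adjusted p of 1, and a difference was not shown.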

How the results depend on the processing

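Of 204 values of single markers under alternatives other than leaving out a library, 185 kept direction and side of the threshold. Of 480 with 1 library left out, 428 did. Most of these values had not passed with all libraries. The Cd200 call of pBCSP over SSC was lost in 5 of 12 such refits. The Eng calls of BCSP over pBCSP and over SSC were lost in 10 of 12 each. The genes past the threshold, with all libraries and then in DESeq2 and with no filter, were 205, 1735 and 1882 for KO on average, 0, 174 and 395 in SSC, 0, 107 and 260 in pBCSP, 0, 124 and 337 in BCSP, and 0, 3 and 50 for the difference in KO effect between populations. For pBCSP over SSC they were 2, 123 and 293, for BCSP over pBCSP 2, 80 and 273, and for BCSP over SSC 3, 243 and 408. With 1 library left out the counts ranged from 0 to 6147 for KO on average, 0 to 5908 in SSC, 0 to 3127 for pBCSP over SSC, 0 to 4 for BCSP over pBCSP, 0 to 3420 for BCSP over SSC and 0 to 2082 for the difference in KO effect. In pBCSP and BCSP the count stayed 0, with 277 to 2358 genes at an unadjusted p under 0.05. Each highest count above 0 was without SSC KO replicate 1. With pairing within a genotype, 9, 10 and 96 genes passed in the 3 population comparisons, and within KO alone or WT alone 0 passed (290 to 967 at an unadjusted p under 0.05 in KO and 330 to 608 in WT).

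Of the markers, DESeq2 passed 1 for KO in BCSP and 2 each for BCSP over pBCSP and over SSC, and with no filter 2 passed for BCSP over pBCSP and 3 for BCSP over SSC. Within KO alone or WT alone 0 markers passed between populations. With 1 library left out the number was 0 to 2 for KO on average, 0 to 1 in SSC, 0 to 1 for pBCSP over SSC and for BCSP over pBCSP, and 0 to 2 for BCSP over SSC. Pairs of a marker and a list fell to 7 for H3K4me1 and 2 for H3K27ac with a -log10 q of at least 5.

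Values that changed sign had not passed. With the replicate number as a block, Tek in SSC KO over WT was -0.83, and the paired Itgav difference of pBCSP over SSC was 0.080. In KO alone Enpep was -0.16 for pBCSP over SSC and Tek -0.14 for BCSP over pBCSP. In WT alone Itgav was 0.14 for pBCSP over SSC and -0.075 for BCSP over pBCSP, and Enpep 0.36 for BCSP over SSC. With 1 library left out, KO over WT in SSC ranged from -1.90 to 0.052 for Itgav, -0.15 to 0.41 for Cd200, -8.87 to 0.39 for Enpep and -6.22 to 1.60 for Tek. It ranged from -0.20 to 0.024 for Eng in pBCSP and -0.52 to 0.40 for Cd200 in BCSP. Over SSC, pBCSP ranged from -0.38 to 0.60 for Itgav, -0.20 to 4.44 for Enpep and -1.76 to 5.79 for Tek, and BCSP from -0.22 to 0.78 for Itgav, -3.92 to 3.84 for Enpep and -1.20 to 6.27 for Tek. BCSP over pBCSP ranged from -0.049 to 0.34 for Itgav and -3.56 to 4.605 for Tek. The cause was not tested. For KO on average the block by number gave 141 genes and 0 markers. Depth limits Thy1 and Ptprc, with 23 and 39 reads in all.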

Other observations

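Of the other surface antigens of skeletal stem cells, 2 had wide ranges over the libraries and were chosen after their values were seen. Cd44, the hyaluronan receptor gene, had 48.6 and 0.0554 CPM in SSC KO and 67.9 and 90.1 CPM in SSC WT, 71.9 and 16.3 CPM in pBCSP KO and 151.8 and 193.7 CPM in pBCSP WT, and 186.9 and 13.01 CPM in BCSP KO and 317 and 334 CPM in BCSP WT. Every KO library was below both WT libraries of its population, and replicate 2 was the lower of each KO pair. In SSC the genotypes of 39.5% of the genes tested did not overlap, in either direction. KO lay wholly below WT for 24% of genes in pBCSP and 26.4% in BCSP. The share for all populations at once was not counted. On average over the populations the log2 difference was -1.79 ± 0.98, which did not pass in edgeR (adjusted p = 0.341).

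Ly6a, the gene of the stem cell antigen SCA-1, had 1.18 and 0 CPM in SSC KO and 4.95 and 3.82 CPM in SSC WT, 5.48 and 0 CPM in pBCSP KO and 24.5 and 36.1 CPM in pBCSP WT, and 26.1 and 0.851 CPM in BCSP KO and 72.7 and 92.1 CPM in BCSP WT. Here too each KO library was below both WT libraries of its population, beside the same shares of all genes as for Cd44. The average log2 difference was -3.01 ± 1.11 (edgeR adjusted p = 0.186), and the difference of BCSP over SSC was 4.39 ± 1.44 (0.616). Neither passed.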
